A study of Mus musculus with 18 samples.

Results

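Replication-dependent histone genes were followed in polyadenylated RNA of mouse liver, lung and colon after RECTAS, a small-molecule modulator of pre-mRNA splicing, or vehicle alone. Genes were taken by name: symbols of the H1f, H2ac, H2bc, H3c and H4c series followed by a digit, and the older Hist1h to Hist4h symbols. Of 55401 genes in the files, 72 had such a symbol. The 60 genes above 0 TPM, a transcript abundance corrected for length and library size, in at least 3 of 18 libraries were kept. They comprised 9 H1, 15 H2A, 14 H2B, 11 H3 and 11 H4 genes, of which 50 lay on chromosome 13 and 7 on chromosome 3. Not every gene chosen by name is replication-dependent. H1f0 and H1f10 are replacement linker histones made outside S phase, H1f6 is a testis form, and H1f11-ps and H2ac5-ps are annotated pseudogenes. Since detection chose the genes, the detection counts given here describe the files and test nothing.

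The animals were C57BL/6N mice 7 weeks old. Treated mice received RECTAS by mouth at 100 mg/kg in 0.5% carboxymethyl cellulose (CMC), and control mice received 0.5% CMC without the compound. Both regimens were given in doses 4 h apart, and tissue was taken 8 h after the first. Each tissue gave 3 vehicle and 3 RECTAS libraries, 18 in all. The labels do not say whether these came from separate animals, so p-values measure only the spread between these libraries. TPM has the same total in each library, so read depth is unknown.

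Replication-dependent histone genes supply the histones that package newly made DNA, and their transcripts rise and fall with S phase. Their mRNAs are the exception among animal mRNAs in ending in a conserved stem-loop, bound by SLBP, in place of a poly(A) tail. Capture on oligo(dT) therefore passes over most of these transcripts. Some histone genes also make spliced or longer, polyadenylated transcripts, and replacement histones are polyadenylated throughout.

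The stem-loops of 9 genes whose values are described, or whose stem differs, are shown because the transcript end bears on what poly(A) selection can recover. Each 30-base window is printed 5′ to 3′ on the gene's strand, in GRCm38 coordinates, with the paired arms of the stem in capitals.
H1f2, chr13:23739505-23739534, plus strand: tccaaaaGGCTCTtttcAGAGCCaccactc
H2ac18, chr3:96246025-96246054, plus strand: ctaaaaaGGCTCTtttcAGAGCCacccact
H2ac19, chr3:96239777-96239806, minus strand: ctaaaaaGGCTCTtttcAGAGCCacccact
H3c15, chr3:96238478-96238507, minus strand: ccacaaaGGCTCTtttcAGAGCCaccacag
H3c4, chr13:23576237-23576266, plus strand: ccccaaaGGCTCTtttcAGAGCCacccccg
H4c8, chr13:23531451-23531480, plus strand: aaccaaaGGCCCTtttcAGGGCCgcccaca
H4c9, chr13:22040959-22040988, minus strand: acttaaaGGCCCTttttAGGGCCaccacaa
Hist1h4n, chr13:21831791-21831820, minus strand: aactaaaGGCCCTtttcAGGGCCatccaat
H4c11, chr13:21735430-21735459, plus strand: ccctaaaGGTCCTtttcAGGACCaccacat

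The motif searched was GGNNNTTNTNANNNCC on the sense strand after the stop codon, with the requirement that the 6 bases of each arm pair. It was found in the annotated transcript of 42 of the 60 genes, 22 to 59 bases after the stop codon. Among 44761 coding transcripts of the GENCODE M21 annotation, 0.228% held it. An identical 16-base stem-loop was shared by 24 genes of the H1, H2A, H2B and H3 classes. H4 genes carried other arms, GGCCCT in most and GGTCCT in H4c2 and H4c11. A match in the gene model does not show that the RNA captured here ended there.

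Several of the highest genes had another kind of end. The hexamer AATAAA, the canonical polyadenylation signal, is in capitals in the 30-base windows from the ends of H1f0, H1f2 and H2bc21.
H1f0, chr15:79030471-79030500, plus strand: ttaaaactttaaAATAAAactggaaaggaa
H1f2, chr13:23740330-23740359, plus strand: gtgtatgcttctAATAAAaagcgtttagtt
H2bc21, chr3:96223705-96223734, plus strand: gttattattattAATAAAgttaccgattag
The hexamer stood in the last 40 bases of 51.3% of all coding transcripts. The H1f2 model holds both signals, with 840 bases between its stem-loop and its end. H1f0 and H2bc21 have no stem-loop in their models.

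H2bc4 was different again. Its only model on chr13:23684199-23692908 joins a 423-base first exon to a 733-base second exon across an intron of 7554 bases. The first exon stops 9 bases after the stop codon, and neither exon holds a stem-loop. AATAAA occurs after the stop codon, but not in the last 40 bases of the model. The joined sequence across the splice, with the stop codon in capitals, reads as follows.
H2bc4, exon 1 end at 23684621 and exon 2 start at 23692176, plus strand: aagTGAtcctgccaagaggagcagacctga

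Few of the 60 genes reached appreciable levels in poly(A) RNA, and they were most numerous in colon and least in liver. In colon, 37 genes were above 0 in all 6 libraries and 23 had a mean of at least 1 TPM. In lung these counts were 28 and 16, and in liver 16 and 9. Conversely, 1 gene in colon, 3 in lung and 9 in liver were listed at 0 in all 6 libraries. The 16 genes above 0 in all 18 libraries came from every class. The median gene stood at 0.663 TPM in vehicle colon, 0.25 in vehicle lung and 0.0467 in vehicle liver.

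**Figure D1:**
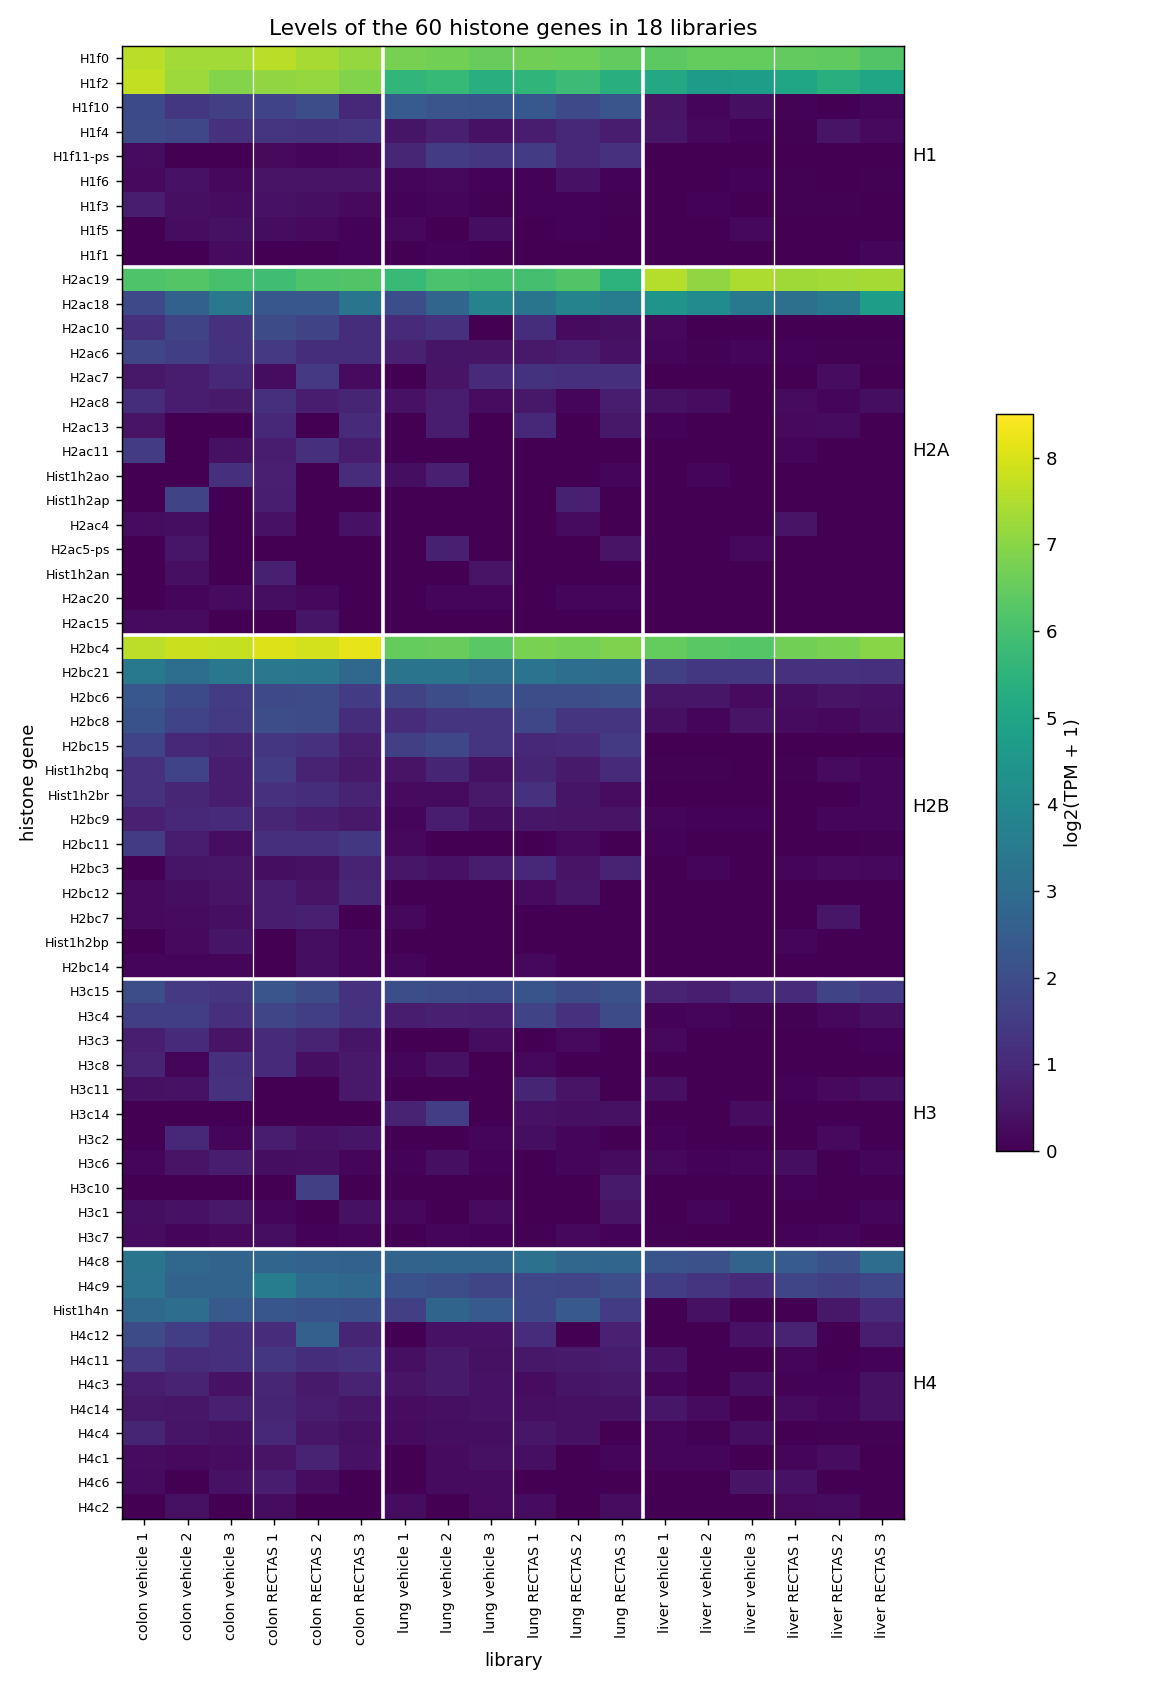
Level of each of the 60 histone genes (rows, grouped by class) in each of the 18 libraries (columns) as log2(TPM + 1), from dark (0) to yellow. The rows of H2bc4, H1f0, H1f2 and H2ac19 are bright across all libraries, while most other rows are dark, most of all in the 6 liver libraries.

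The same 4 genes, H2bc4, H1f0, H2ac19 and H1f2, were the highest in the vehicle libraries of every tissue. They held 89.7% of the summed histone TPM in vehicle colon, 84.9% in vehicle lung and 93.1% in vehicle liver. Their order differed. H2bc4 led in colon, H1f0 in lung and H2ac19 in liver. Neighbours in that order were not always apart. In vehicle colon, H1f0 at 171 ± 20.6 TPM (SD, n = 3) and H1f2 at 161 ± 45.6 overlapped, as did H1f0 at 86.0 ± 4.49 and H2bc4 at 81.3 ± 6.75 in vehicle liver.

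Genes were also grouped by the end of their annotated transcript. Of the 14 genes with AATAAA near the end, 8 averaged at least 1 TPM in colon, 5 in lung and 3 in liver. These counts include the replacement forms H1f0 and H1f10 in colon and lung, and H1f0 in liver. H2bc6 is in this class only through a transcript that is not annotated as coding. The class was not counted without these genes. Of the 12 genes whose model runs at least 100 bases past the stem-loop without AATAAA near the end, 6, 4 and 2 did. Of the 21 whose model stops within 100 bases after the stem-loop, 5, 4 and 3 did. Of the 10 whose model ends near the stop codon without a stem-loop, 3, 1 and 0 did. In colon the medians of these 4 classes were 1.10, 1.20, 0.495 and 0.369 TPM, and in liver 0.119, 0.109, 0.035 and 0.0217. The class that stops after the stem-loop still held H2ac19, the highest gene in liver. No test was made of these classes, since genes within a class share sequence and the models of short genes may be incomplete.

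**Figure D2:**
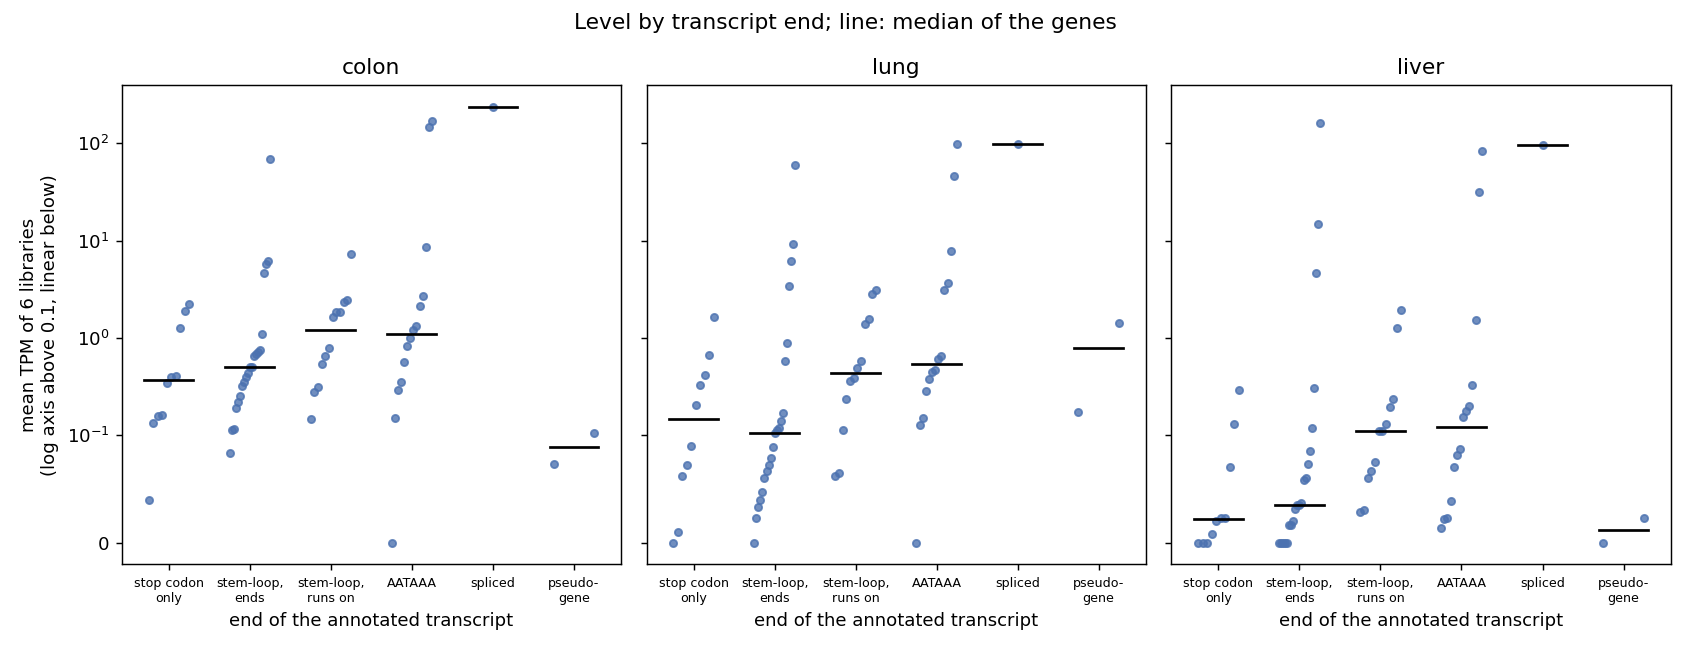
Mean TPM of 6 libraries per gene (points) in colon, lung and liver, by the end of the annotated transcript, on an axis that is logarithmic above 0.1 and linear below, with the median of each class as a line. In each tissue the genes that run past the stem-loop or carry AATAAA have higher medians than those that stop at the stem-loop or the stop codon, but single genes such as H2ac19 lie far above their class.

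Sequence sharing limits what a value means for a single gene. A median of 50.6% of the 50-base windows of a histone gene occurred in no other gene, and 28 of the 60 genes had under 50% unique windows. H1f0, H1f10 and H2bc21 were wholly unique, H1f2 was 91.5% unique and H2bc4 69.9%. The other windows of H2bc4 were shared with 100 other genes, where those of H1f2 were shared with 2 and those of H2bc8 with 14. The part of reads from such genes in the H2bc4 values was not tested. The 528-base transcript of H2ac19 lies whole within that of H2ac18, so the H2ac19 model had 0% unique windows and H2ac18 10.6%. How reads were divided within this inverted pair on chromosome 3 cannot be seen, and the pair was therefore also summed.

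Among linker histones, H1f0 and H1f2 made up nearly all the signal. H1f0, the replacement form typical of differentiated cells, stood at 195, 158 and 161 TPM in the vehicle colon libraries. It stood at 108, 102 and 91.8 in vehicle lung and at 80.8, 89.2 and 88.0 in vehicle liver. As deposited, every vehicle colon library lay above every lung and liver library. Under median ratio scaling the H1f0 difference of liver from colon went from -0.98 to -0.03 (adjusted p = 0.748, limma).

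H1f2, a somatic linker histone, was at 211, 151 and 121 TPM in vehicle colon. The values were 46.8, 50.2 and 40.1 in vehicle lung and 34.3, 24.4 and 26.4 in vehicle liver. The 3 tissues did not overlap as deposited, but the order of lung and liver depended on the scaling. The H1f2 log2 difference of lung from liver was 0.68 (adjusted p = 0.0101, limma) as deposited, -0.66 (adjusted p = 0.0138) under median ratio scaling and -0.09 under quantile normalisation. The library with 211 TPM also had the highest summed level of 5 smooth muscle markers, 4212 TPM against 1557 to 1634 in the other vehicle colon libraries. The part of this in the H1f2 value was not tested. H1f10 averaged 3.90 ± 0.413 TPM in vehicle lung, 2.14 ± 0.592 in vehicle colon and 0.243 ± 0.122 in vehicle liver. H1f6, a testis linker histone, stayed between 0 and 0.380 TPM, and the oocyte form H1f8 had 0.0700 TPM in a single library. H1f7, H2ac1 and H2bc1, all germ-line forms, were listed at 0 in all 18.

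Core histone H2A signal came mostly from the H2ac18 and H2ac19 pair. The summed pair was at 73.5, 78.9 and 74.1 TPM in vehicle colon, 56.3, 72.8 and 76.6 in vehicle lung and 205, 150 and 185 in vehicle liver. Liver was the only tissue in which the pair stood above H2bc4 and H1f0. No other H2A gene averaged above 2 TPM in a vehicle group.

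For H2B, H2bc4 took the same place. Vehicle libraries had 202, 226 and 216 TPM in colon, 88.5, 91.2 and 79.5 in lung and 88.6, 79.9 and 75.3 in liver. As deposited, colon lay above both other tissues, which overlapped. Lung minus liver for H2bc4 was 0.09 as deposited, -1.27 (adjusted p = 5.03e-06, limma) under median ratio scaling and -0.28 (adjusted p = 0.0149) under quantile normalisation. Liver minus colon was -1.39 as deposited and -0.44 under median ratio scaling. H2bc21, a long intronless H2B gene ending in AATAAA, followed at 8.93 ± 1.37 TPM in vehicle colon, 8.15 ± 0.889 in vehicle lung and 1.75 ± 0.272 in vehicle liver.

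H3 and H4 genes were low everywhere. The 11 H3 genes summed to 7.04 ± 0.174 TPM in vehicle colon, 4.99 ± 1.09 in vehicle lung and 1.26 ± 0.319 in vehicle liver. In vehicle colon H3c15 and H3c4 were the highest of them. The 11 H4 genes summed to 24.6 ± 5.30, 14.6 ± 2.19 and 6.62 ± 1.23 TPM. H4c8, H4c9 and Hist1h4n supplied most of that, at 6.86 ± 1.66, 6.47 ± 1.61 and 5.82 ± 1.54 TPM in vehicle colon.

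**Figure D3:**
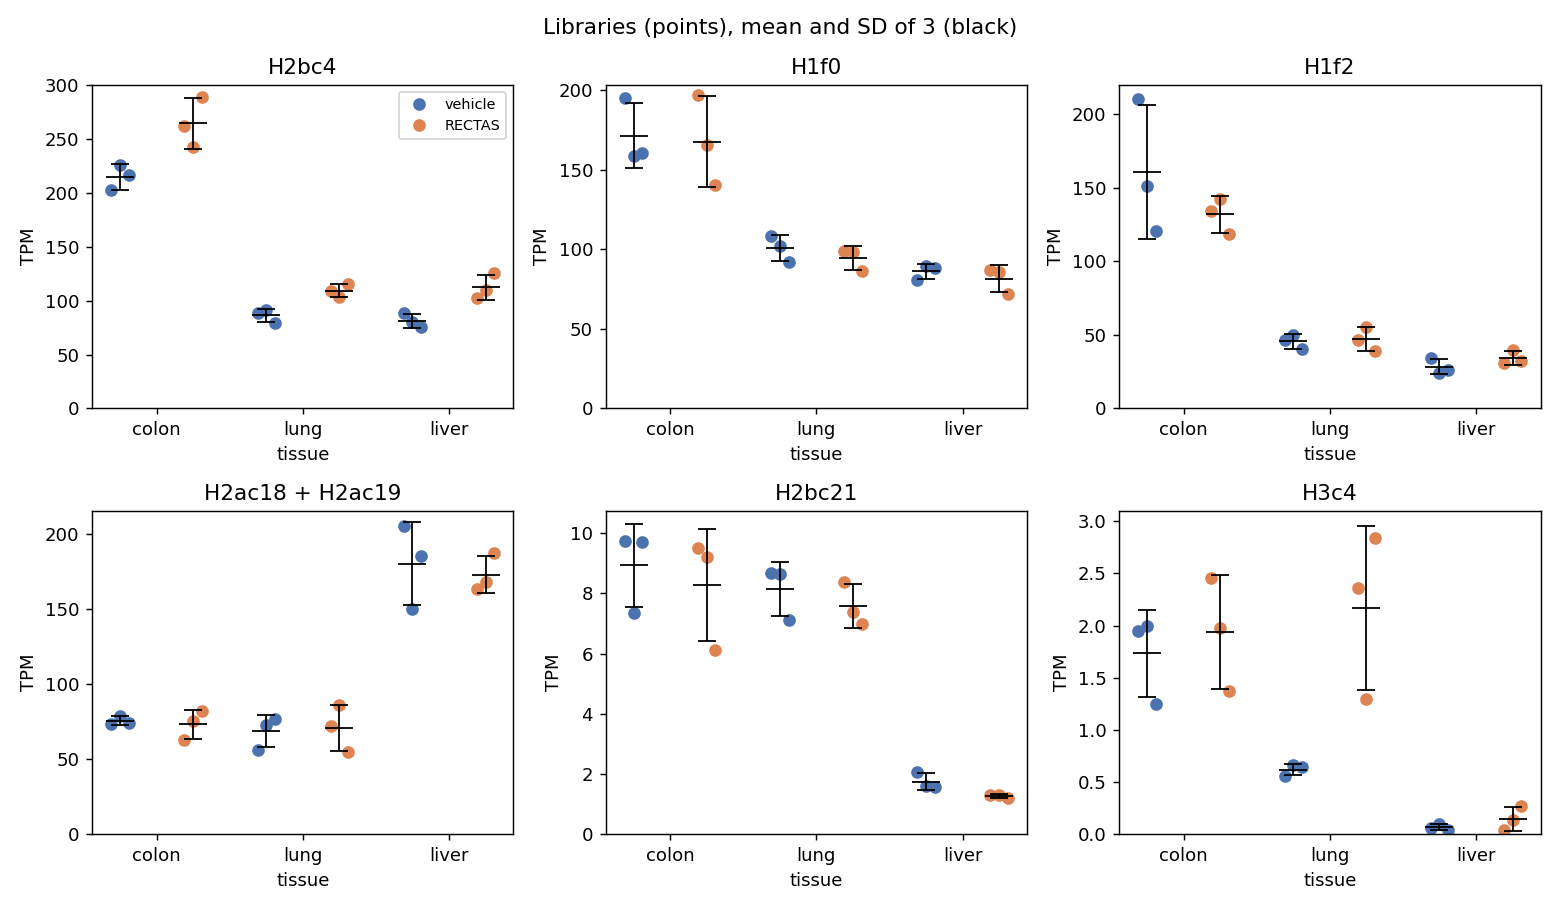
TPM of H2bc4, H1f0, H1f2, the summed H2ac18 and H2ac19 pair, H2bc21 and H3c4 in each library (points, vehicle blue and RECTAS orange) with mean and SD of 3 in black. H2bc4 is higher in all RECTAS libraries than in all vehicle libraries of the same tissue, the summed pair is highest in liver, and H3c4 separates in lung only.

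Vehicle libraries of the 3 tissues were compared with limma on log2(TPM + 1), for the 20 histone genes that reached 1 TPM in 3 or more of the 9 libraries. Between tissues most genes of any kind differ, so the counts are to be read against that. In liver against colon, all 20 histone genes were called at an adjusted p under 0.05, where 79.9% of all 16715 genes were called. Of these, 2 were higher in liver and 18 lower, where 16.1% and 63.8% of all genes were. In lung against colon, 11 were called, where 75.7% of all genes were called. Of these, 1 was higher in lung and 10 lower, where 51% and 24.7% of all genes were. The count was 6 without vehicle colon library 2 and 6 without vehicle colon library 3. Leaving out a colon library also took the number tested from 20 to 15. That is because H1f4, H2ac6, H3c4, H4c11 and H4c12 reached 1 TPM in the 3 vehicle colon libraries alone. The filter thus fixed the direction of these 5 genes against lung and liver, and they are no support for the counts of lower genes. H2ac10, called lower in liver, also passed only with the colon libraries, as 2 other libraries reached 1 TPM. It is no support for those counts either. In lung against liver, 12 were called, where 88% of all genes were called. Of these, 11 were higher in lung and 1 lower, where 74.5% and 13.5% of all genes were. H2bc15, among the 11, passed the filter only with the lung libraries, as 1 other library reached 1 TPM. It is no support for the count of genes higher in lung. In bulk tissue, fewer cells of a type and less RNA per cell cannot be told apart.

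These splits depended on the scaling between tissues. The median log2 difference of all genes was 0.35 for lung minus colon, -0.68 for liver minus colon and 1.10 for lung minus liver. Median ratio scaling brought these to 0.0096, -0.027 and 0.081. Under that scaling the splits became 0 higher and 15 lower for lung against colon, 2 and 15 for liver against colon, and 6 and 6 for lung against liver. Under quantile normalisation they were 0 and 15, 2 and 16, and 3 and 7. The median log2 difference of the 20 histone genes was -0.58, -1.37 and 0.64 as deposited and -0.76, -1.09 and 0.16 under median ratio scaling. Under quantile normalisation it was -0.96, -0.77 and -0.27. The median histone gene was lower in lung and liver than in colon under each scaling, while the sign between lung and liver turned under quantile normalisation. The 20 genes include the 5 that reached 1 TPM in vehicle colon alone and H2ac10, which passed only with the colon libraries. They also include H2bc15, which passed only with the lung libraries and so is no support for lung against liver. The filter thus fixed part of the lower direction in these medians and splits against colon. Called differences turned sign under at least 1 scaling for 6 of 12 genes in lung against liver, 2 of 20 in liver against colon and 1 of 11 in lung against colon.

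Liver was lower than colon by 2.62 log2 units for Hist1h4n (SE 0.29, adjusted p = 2.26e-05, limma), by 2.44 for H1f2 (SE 0.20, adjusted p = 2.95e-06), by 1.85 for H2bc21 and by 1.58 for H4c9. All 4 kept that direction and passed under each scaling. Lung was lower than colon by 1.76 for H1f2, 1.3 for H2bc4, 1.29 for H4c12 and 1.12 for H1f4, again under each scaling. H4c12 and H1f4 were tested through the colon libraries alone, so their direction follows from the filter. H1f4 shares exonic bases with H2bc6 on the same strand, so their reads could have been divided. H1f10 was higher in lung than in colon by 0.66 (SE 0.15, adjusted p = 0.00309), but the call was lost under median ratio scaling (0.33, adjusted p = 0.0727) and the sign turned under quantile normalisation (-0.0098).

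The summed H2ac18 and H2ac19 pair went the other way. It was higher in liver than in colon by 1.23 log2 units (SE 0.14, adjusted p = 2.63e-05, limma) and lower in lung than in liver by 1.38 (SE 0.14, adjusted p = 8.49e-06). Scaling left the direction in place, with 1.31 to 2.18 for liver minus colon. All 3 liver libraries lay above all colon and lung libraries. Tested alone, H2ac19 was higher in liver than in colon by 1.22, and H2ac18 by 1.33 with an adjusted p of 0.0327. The H2ac18 call was lost without vehicle colon library 1 (0.96, adjusted p = 0.12), vehicle colon library 2 (0.0710), vehicle liver library 1 (0.101) or vehicle liver library 2 (0.0793).

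Between lung and liver, lung was higher for Hist1h4n by 2.12 log2 units, for H1f10 by 1.98 and for H2bc21 by 1.74. Hist1h4n and H1f10 passed in that direction under each scaling, and H2bc21 did not pass under quantile normalisation (0.22, adjusted p = 0.149). H2bc15 averaged 2.01 ± 0.547 TPM in vehicle lung and was listed at 0 in every liver library. As it was tested only through the lung libraries, its direction against liver follows from the filter.

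RECTAS was then compared with vehicle within each tissue, for genes that reached 1 TPM in 3 or more of the 6 libraries. This kept 23 histone genes in colon, 18 in lung and 9 in liver. No histone gene was called at an adjusted p under 0.05 in any tissue by limma, where 0% of all genes tested were called in colon, 0.00637% in lung and 0.0167% in liver. At an unadjusted p under 0.05 there were 2, 3 and 3 histone genes, where 1.62%, 12.6% and 11.6% of all genes passed. H3c4 and H2ac7 in lung and H3c15 in liver were among these, and they passed the filter only with the RECTAS libraries. These genes are thus no support for the counts or for the medians given next. The median log2 difference of the histone genes tested was -0.05 in colon, 0.01 in lung and 0.19 in liver, beside 0.02, 0.06 and -0.04 for all genes tested.

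Summed histone TPM moved little. The ratio of RECTAS to vehicle was 1.02 ± 0.106 in colon, 1.07 ± 0.0925 in lung and 1.07 ± 0.106 in liver, where the SD is propagated from 3 libraries per group. Colon libraries ranged from 626 to 758 TPM with vehicle and 678 to 731 with RECTAS. Lung ranged from 330 to 368 and 341 to 386, and liver from 353 to 421 and 397 to 434, so the groups overlapped in all 3 tissues. Without H1f0, vehicle and RECTAS sums averaged 516 ± 48.7 and 533 ± 5.15 TPM in colon. They averaged 246 ± 17.9 and 275 ± 17.1 in lung, and 301 ± 38.3 and 334 ± 26.3 in liver.

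**Figure D4:**
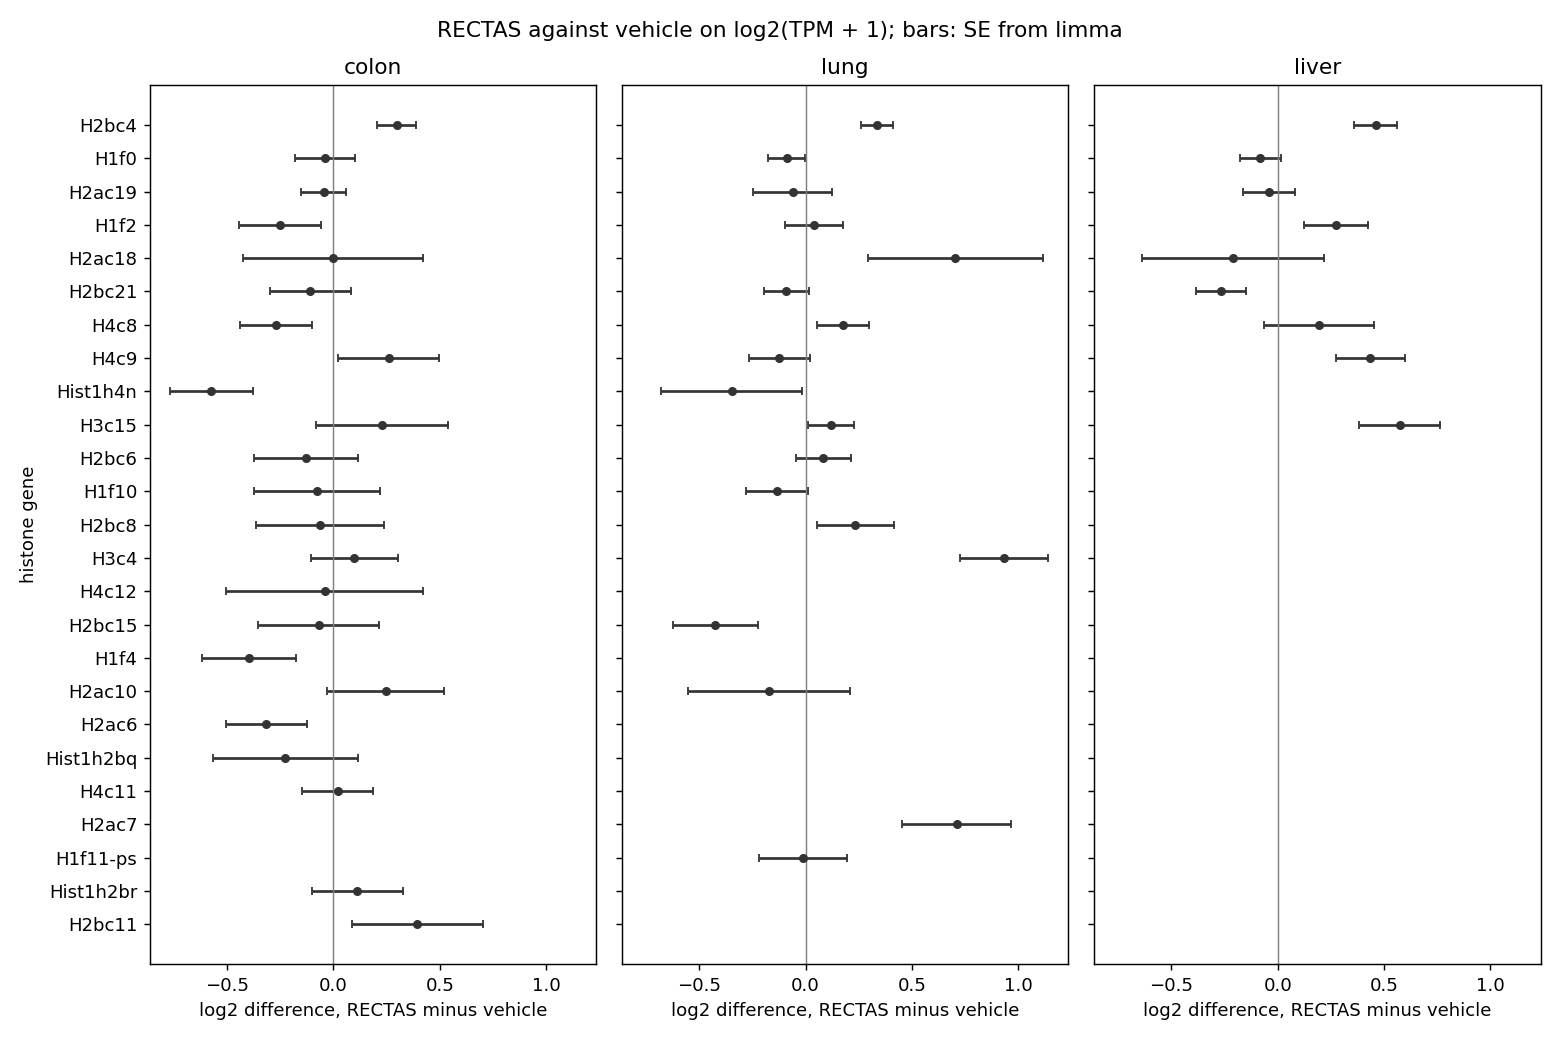
Log2 difference of RECTAS minus vehicle on log2(TPM + 1) (points) with its SE from limma (bars) for each histone gene tested in colon, lung and liver. H2bc4 lies to the right of 0 in each tissue with a short bar, H3c4 and H2ac7 lie farthest right in lung, and most other genes span 0.

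H2bc4 was the only histone gene tested whose RECTAS libraries lay above its vehicle libraries in all 3 tissues. Taken tissue by tissue, 3.43% of all genes in colon, 16.1% in lung and 5.75% in liver did so. The share of all genes that did so in all 3 tissues was not counted, so the pattern cannot be called particular to H2bc4. In colon it stood at 202, 226 and 216 TPM with vehicle and at 262, 242 and 289 with RECTAS. In lung the values were 88.5, 91.2 and 79.5 against 109, 104 and 115, and in liver 88.6, 79.9 and 75.3 against 102, 110 and 125. No RECTAS library fell within the vehicle range of its tissue.

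The H2bc4 log2 difference was 0.30 in colon (SE 0.091, unadjusted p = 0.0136, adjusted p = 0.9999, limma). It was 0.34 in lung (SE 0.073, unadjusted p = 0.00259, adjusted p = 0.264) and 0.46 in liver (SE 0.10, unadjusted p = 0.00273, adjusted p = 0.232). None passed the adjusted threshold. With all 18 libraries in 1 fit, the liver difference passed with an adjusted p of 0.0310. Averaged over the 3 tissues, a comparison chosen after the data were seen, H2bc4 rose by 0.36 log2 units (SE 0.052, adjusted p = 0.00781, limma). It was the only one of 25 histone genes called, where 0.188% of all 17537 genes were called. The averaged difference was 0.34 to 0.39 when each library was left out in turn, and H2bc4 was still called. Under median ratio scaling it was 0.36 with an adjusted p of 0.0612 and did not pass.

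None of the other high genes passed. H1f0 differed by -0.04 in colon, -0.09 in lung and -0.08 in liver, with adjusted p-values of 0.9999, 0.689 and 0.776. H1f2 differed by -0.25 (SE 0.19), 0.04 (SE 0.14) and 0.28 (SE 0.15), and the summed H2ac18 and H2ac19 pair by -0.05 (SE 0.11), 0.03 (SE 0.18) and -0.05 (SE 0.12). Vehicle and RECTAS values of H1f0, H1f2 and the pair overlapped in each tissue.

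H2bc4 shares its start region with H2ac6, an H2A gene transcribed the other way. The 250 bases before the RefSeq start of H2ac6 (GRCm38.p6) reach the start of H2bc4, and they are shown for that reason. Capitals mark CCAAT, the octamer ATTTGCAT and TATAAA, each searched on both strands, so that the reverse complements ATTGG and ATGCAAAT are also marked.
H2ac6 upstream region, chr13:23683960-23684209, minus strand: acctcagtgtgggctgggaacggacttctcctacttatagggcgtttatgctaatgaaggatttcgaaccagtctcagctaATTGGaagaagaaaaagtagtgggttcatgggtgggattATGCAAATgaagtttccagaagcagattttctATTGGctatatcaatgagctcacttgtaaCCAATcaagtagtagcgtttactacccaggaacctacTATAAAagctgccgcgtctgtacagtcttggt
H2ac6 itself was low, at 2.41, 1.97 and 1.38 TPM in vehicle colon and 1.65, 1.16 and 1.18 with RECTAS. Its log2 difference in colon was -0.32 (SE 0.19, adjusted p = 0.9999, limma). The H2ac6 and H2bc4 differences had opposite signs in colon.

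Promoters of 45 histone genes were found in the RefSeq table, and the 250 bases before the start were searched. H2bc4 and H2bc21 were not among these genes. CCAAT stood in 35 of the 45 regions (77.8%), the octamer in 8 (17.8%) and TATAAA in 21 (46.7%). Among all 32851 promoters the shares were 33.8%, 1.60% and 12.4%. A match describes the letters and does not show binding.

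In colon, RECTAS and vehicle libraries did not overlap for 2 of the 23 histone genes, where 5.44% of all genes did not overlap. The split was 1 higher and 1 lower, where 3.43% and 2.01% of all genes were. These were H2bc4 and the H4 gene Hist1h4n, which was at 6.18, 7.15 and 4.13 TPM with vehicle and 3.89, 3.46 and 3.17 with RECTAS. The Hist1h4n difference was -0.57 (SE 0.19, unadjusted p = 0.0206, adjusted p = 0.9999, limma). Only 14.4% of its windows were unique.

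In lung, 4 of 18 histone genes did not overlap, where 19.3% of all genes did not, and all 4 were higher with RECTAS, where 16.1% of all genes were. H3c4, an H3 gene, was at 0.560, 0.660 and 0.640 TPM with vehicle and 2.36, 1.3 and 2.84 with RECTAS. Each RECTAS value exceeded each vehicle value, and the gene passed the filter on low values through the RECTAS libraries alone. Its log2 difference was 0.93 (SE 0.21, unadjusted p = 0.00284, adjusted p = 0.264, limma), and it passed with all 18 libraries in 1 fit (adjusted p = 0.0493). H3c4 differed by 0.10 (SE 0.20) in colon, where it was at 1.95, 2 and 1.25 TPM with vehicle and 2.46, 1.98 and 1.37 with RECTAS. The H3c4 effect was not called as different between lung and colon.

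H2ac7 lies next to H3c4 on the same strand, at chr13:23574381-23574952 against chr13:23575763-23577011. In lung it was at 0, 0.380 and 1 TPM with vehicle and 1.37, 1.23 and 1.29 with RECTAS, a difference of 0.71 (SE 0.26, adjusted p = 0.347, limma). It too passed the filter only with the RECTAS libraries, as 1 vehicle library reached 1 TPM. H3c4 and H2ac7 are thus no support for the count of higher genes in lung. Only 32.9% of H2ac7 windows were unique, against 75.2% for H3c4. The H4 gene H4c8 was at 5.60, 5.67 and 5.75 TPM with vehicle and 8.01, 5.98 and 5.84 with RECTAS, where a single RECTAS library lay well above the rest. Its difference was 0.18 (SE 0.12, adjusted p = 0.579).

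In liver, 4 of 9 histone genes did not overlap, where 18.7% of all genes did not. Of these, 3 were higher and 1 lower with RECTAS, where 5.75% and 13% of all genes were. H3c15 was at 0.790, 0.640 and 1 TPM with vehicle and 1.08, 2.32 and 1.81 with RECTAS, a difference of 0.57 (SE 0.19, adjusted p = 0.365, limma). H3c15 passed the filter only with the RECTAS libraries, as 1 vehicle library reached 1 TPM, so it is no support for the count of higher genes. Only 36.5% of H3c15 windows were unique. H4c9 was at 2.01, 1.44 and 1.04 TPM with vehicle and 2.44, 2.05 and 2.54 with RECTAS, a difference of 0.44 (SE 0.16, adjusted p = 0.397). H2bc21 was at 2.06, 1.61 and 1.57 TPM with vehicle and 1.31, 1.31 and 1.20 with RECTAS, a difference of -0.27 (SE 0.12, adjusted p = 0.448). The remaining gene was H2bc4.

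No histone gene was called for a RECTAS effect that differed between tissues. Of 25 tested, 0 passed for lung against colon, liver against colon or lung against liver by limma, where 0.0114%, 0.0285% and 0.0228% of all genes did. At an unadjusted p under 0.05 there were 3, 1 and 1, where 3.22%, 5.37% and 8.98% of all genes passed.

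Markers of proliferation and of the histone pathway gave the setting for these values. Of 22 S-phase genes, vehicle colon libraries summed to 266 to 298 TPM, vehicle lung to 248 to 288 and vehicle liver to 74.6 to 83.9. Of 16 genes of G2 and mitosis the sums were 282 to 299, 52.6 to 67.7 and 9.39 to 13.3 TPM. The 55 histone genes outside the 4 highest and H2ac18 summed to 65.3 ± 11.1 TPM in vehicle colon, 44.9 ± 6.02 in vehicle lung and 11.3 ± 1.80 in vehicle liver. Colon thus had the highest mean and liver the lowest for all 3 sums, with S-phase sums of colon and lung overlapping.

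**Figure D5:**
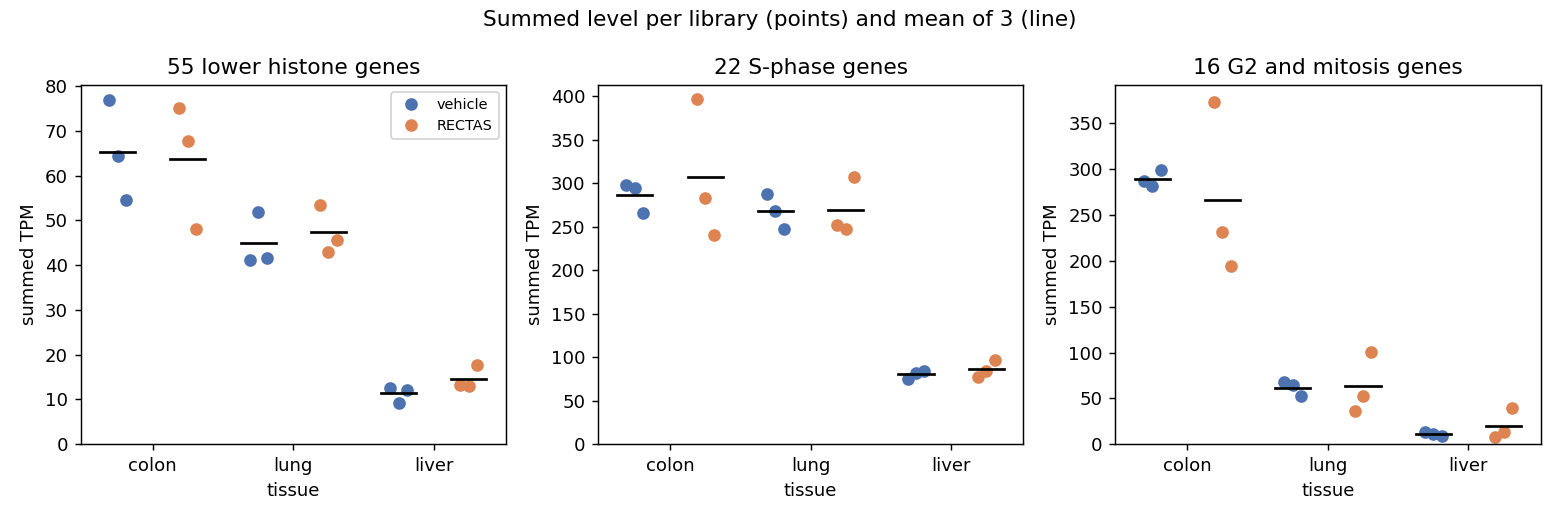
Summed TPM per library (points, vehicle blue and RECTAS orange) and the mean of 3 (line) for the 55 lower histone genes, 22 S-phase genes and 16 G2 and mitosis genes. All 3 sums are lowest in liver, and 1 RECTAS library of each tissue stands above its group for the G2 and mitosis genes.

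Of the 16 G2 and mitosis genes, 16 were called lower in vehicle lung than in vehicle colon, where 24.7% of all genes were. In vehicle liver 16 were called lower than in vehicle colon, where 63.8% of all genes were. Of the 22 S-phase genes, 4 were called higher and 10 lower in lung than in colon, where 51% and 24.7% of all genes were, and 22 lower in liver than in colon, where 63.8% were. Under RECTAS, 0 genes of either list were called in any tissue by limma. Liver RECTAS library 3 had a G2 and mitosis sum of 39.8 TPM against 7.71 and 13.1 in the other RECTAS libraries, and it also had the highest H2bc4 value. In lung, RECTAS library 3 likewise had the highest H2bc4 value and the highest G2 and mitosis sum, 100 TPM against 36.7 and 52.6. In colon the order was the other way. There RECTAS library 3 had the highest H2bc4 value and the lowest G2 and mitosis sum, 194 TPM against 231 and 374. The part of dividing cells in the H2bc4 values was not tested. Without liver RECTAS library 3 the H2bc4 difference in liver was 0.38 (adjusted p = 0.539).

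Factors that form and destroy the histone mRNA end were tested gene by gene and counted by list, with no test of a list. The processing list was drawn widely and also holds Cpsf1, Fip1l1 and Wdr33, so its counts are not of histone-specific factors alone. Of 17 processing factors tested in lung, 17 were above vehicle and 0 were called. In colon 14 of 17 were above vehicle and in liver 7 of 16, with 0 called. Ncbp2, a cap-binding subunit, was at 36.1, 34.5 and 36.8 TPM with vehicle and 41.5, 38.6 and 39.95 with RECTAS (log2 difference 0.16, SE 0.060, adjusted p = 0.359, limma). The list median in lung was 0.10, where the median of all genes was also above 0, at 0.06. Slbp, which binds the stem-loop, was at 33.7, 32.2 and 32.7 TPM in vehicle colon and 44.7, 37.0 and 32.1 with RECTAS, a difference of 0.19 (SE 0.12, adjusted p = 0.9999). In liver, Lsm10 of the U7 snRNP differed by -0.31 (SE 0.13, adjusted p = 0.433).

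Of 11 decay factors, 0 were called in colon, lung or liver under RECTAS. Upf1, which drives histone mRNA decay with SLBP, was higher by 0.19 in lung (SE 0.078, adjusted p = 0.391) and by 0.25 in liver (SE 0.10, adjusted p = 0.423), and Tut7, a uridylyltransferase, was at 0.14 in lung and -0.19 in liver. Of the replacement variants, 0 were called. H2ax in liver was at 5.18, 7.70 and 8.33 TPM with vehicle and 10.3, 11.1 and 11.8 with RECTAS (log2 difference 0.60, SE 0.16, adjusted p = 0.292, limma). H2az2 in liver was at 42.4, 34.1 and 35.1 against 28.9, 26.8 and 29.2 (-0.38, SE 0.10, adjusted p = 0.292). Neither overlapped between groups, where 18.7% of all genes tested in liver did not overlap, and neither passed. Of 15 histone chaperones tested in colon and lung and 13 in liver, 0 were called.

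Each tissue was high in the markers of its label. The 5 hepatocyte markers summed to 89956 to 109329 TPM in liver, the 5 alveolar type 2 markers to 35587 to 44050 in lung and the 5 colonocyte markers to 9744 to 29215 in colon. Lung libraries also held the 5 hepatocyte markers, summed to 9.74 to 1333 TPM, with the highest value in vehicle lung library 3, and B cell markers at 74.5 to 114 TPM. The part of these in the histone values was not tested.

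At the edge of the rule, Hist1h2ap, H3c10, Hist1h2an and H2ac15 were above 0 in exactly 3 libraries, with highest values of 2.33, 2.06, 0.680 and 0.410 TPM. H2ac14, H2ac12, H2bc13, Hist1h4m, Hist1h2al and H3c13 were above 0 in 2 and were left out, with highest values of 1.04, 1.07, 0.420, 0.440, 0.250 and 0.210 TPM.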

How the data were processed

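The authors deposited gene-level TPM per library, made from poly(A) RNA with a stranded TruSeq kit per the labels' protocols. The submitters' processing notes name HISAT2 2.2.0, RSEM 1.3.0 and GRCm38. All columns had the same total, so TPM keeps no depth and no counting interval was possible. TPM of 0 may be a failed estimate.

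Groups came from the labels. The members and lists were chosen with earlier results of these data known. Genes reaching 1 TPM in 3 or more libraries of a comparison entered limma 3.58.1 as log2(TPM + 1) (trend, two-sided, Benjamini-Hochberg 0.05) in R 4.3.3, checked on simulated data. Fold differences are on that scale and understate low genes.

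Named were genes called, the 4 highest per vehicle tissue, up to 4 non-overlapping genes per tissue, up to 4 called per vehicle pair and direction, genes at the rule's edge, germ-line forms and up to 3 genes per list. H2ac6, H1f6 and H1f8 were added as neighbours or by current symbol. Alternatives were pseudocounts, filters, scalings, a replicate block, 1 fit of all libraries and leaving out each library. GENCODE M21 matched all 60 genes.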

Additional observations from a re-analysis of the deposited data

How the results depend on the processing

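No histone gene was called for RECTAS within a tissue or between tissues under the other pseudocounts, filters and scalings, without any 1 library (0 to 0 throughout) or with the replicate block. With 1 fit of all 18 libraries, 1 gene was called in lung (H3c4) and 1 in liver (H2bc4). The averaged comparison called 1 gene under each alternative except median ratio scaling, which called 0. Counts of histone genes called between vehicle tissues moved with the filter on low values: with no filter 22 were called for lung against colon and 36 for liver against colon, and with a filter of 5 TPM 4, 9 and 5 were called for lung against colon, liver against colon and lung against liver, since more or fewer genes were tested. Leaving out 1 library gave 6 to 13, 14 to 20 and 11 to 15. The rule itself kept 25 genes when it asked for at least 1 TPM in at least 3 libraries. Summed ratios stayed within their SD under each alternative.

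Signs also turned for named differences. Under RECTAS, where none of these was called, H1f2 in lung became -0.021 with median ratio scaling, -0.049 with quantile normalisation and -0.022 rescaled without mitochondrial and the top 20 genes, and the summed H2ac18 and H2ac19 pair in lung became -0.026, -0.059 and -0.027. With median ratio scaling H2ac19 in liver became 0.0089 and the pair in liver 0.0014. H1f10 between vehicle lung and colon became -0.0098 with quantile normalisation. Leaving out 1 library gave H1f0 -0.16 to 0.081 in colon and -0.13 to 0.0053 in liver, H1f2 -0.082 to 0.16 in lung, and H2ac19 in colon -0.10 to 0.050, in lung -0.21 to 0.15 and in liver -0.18 to 0.049.

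Whether replicate numbers pair the libraries cannot be settled with 3 libraries per group. The correlations given here are across genes, on departures of each library from the mean of its group, and not on whole libraries. Departures of same-numbered vehicle and RECTAS libraries correlated at -0.30 to 0.36 for colon, -0.00014 to 0.41 for lung and -0.10 to 0.026 for liver. Those of differently numbered libraries correlated at -0.48 to 0.47 for colon, -0.36 to 0.081 for lung and -0.12 to 0.20 for liver. The 3 departures of a group sum to 0, so these values constrain one another. With the replicate block the counts were 0 for RECTAS in each tissue and 11, 20 and 13 between vehicle tissues. TPM keeps no depth, so precision of the many genes under 1 TPM is unknown.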
